A study of Homo sapiens with 8 samples.

Results

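Cadherins and protocadherins are adhesion proteins of the cell surface, and the members described here were the genes of the table whose symbol starts with PCDH or is CDH followed by a number. The rule found 28 members among 14526 genes, of which 9 were clustered protocadherins and 19 were other cadherins and protocadherins (10 CDH genes and 9 non-clustered PCDH genes). RefSeq (assembly GRCh38.p14) lists 89 protein-coding genes that fit the rule, so 61 had no row in the table used here. Of the clustered families, 1 of 15 PCDHA, 3 of 16 PCDHB and 5 of 22 PCDHG genes had a row, against 9 of 13 non-clustered PCDH genes and 10 of 23 CDH genes.

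Classical cadherins bind the same cadherin on a neighbouring cell through calcium-dependent extracellular repeats and are tied to actin inside the cell by catenins. The clustered protocadherins lie in a row of 3 gene families on chromosome 5, where each variable exon has its own promoter, and single neurons switch on a combination of them that serves as a surface label in self-recognition. Their promoters are known to be bound by CTCF, which with cohesin loops them to distant enhancers, and to be silenced by DNA methylation in cells that do not use them.

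The study compared cells labelled HepG2, an established human liver cancer line, grown in DMEM with serum, without treatment (control, 4 replicates) and after 24 h with 10 mM sodium benzoate (SB, 4 replicates). SB is a food preservative and a source of benzoyl-CoA in cells, and the question here was which of these adhesion genes had another RNA level after it. Total RNA was sequenced, and each gene has an RPKM value per library, which is the reads of a gene divided by its length and by the size of the library as scaled by the authors. The replicates are called biological in the study's description, with nothing said of how the cultures were kept apart, so p-values measure the spread between these samples. The reads behind the RPKM values were recovered as whole numbers and summed to 44492795, 40629930, 36990075 and 42237686 in control replicates 1 to 4 and to 37161781, 38275766, 40642322 and 44878414 in SB replicates 1 to 4.

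The library of control replicate 1 stood apart from the rest. A chi-square of recovered reads over genes, divided by its degrees of freedom, was between 33.4 and 38.4 for this library against the other controls, and between 1.52 and 3.80 for every other pair within a group. Results were therefore also computed without it. Markers of hepatocytes were mostly absent, which goes against the label: 17 of 20 had no row, among them albumin (ALB), alpha-fetoprotein (AFP), APOA1, transthyretin (TTR) and HNF4A. Of those with a row FOXA1 was the most abundant, at a mean of 1.14 RPKM. The cells are therefore called by their treatment below, and no other name is given to them.

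Most of the clustered protocadherins in the table were called higher after SB, a direction that the filter of the table favours, as described below. With limma on log2(RPKM + 1), adjusted over all 14526 genes by the Benjamini-Hochberg method, 6 of the 9 members were called higher at an adjusted p below 0.05 and 0 lower, and at an unadjusted p below 0.05 the counts were 7 and 0. Among all genes, 33.0% were called higher, 32.6% lower and 65.6% in either direction. The SB replicates lay above the control replicates without overlap for 8 of the 9 members, while 31.0% of all genes separated in that direction and 30.5% in the other. The median log2 fold change of the 9 was 0.19, against 0.0045 over all genes, and the median ratio of mean RPKM was 1.67.

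**Figure D1:**
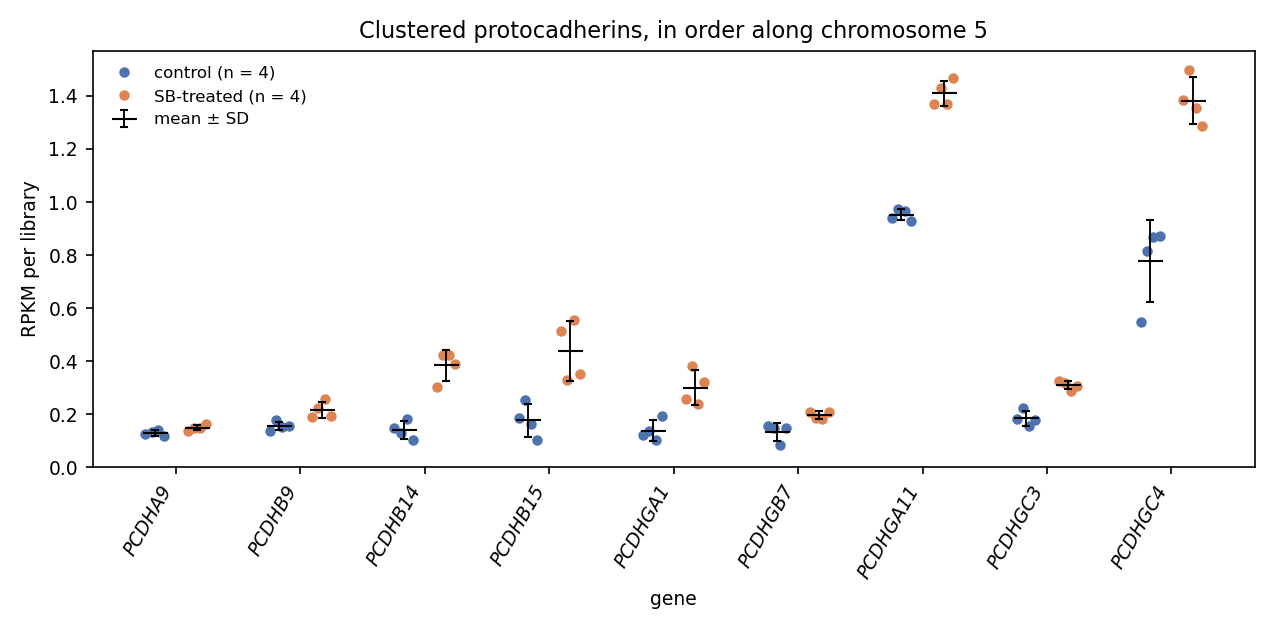
RPKM of the 9 clustered protocadherins (vertical axis) in each of 4 control and 4 SB-treated libraries, in order along chromosome 5 (horizontal axis), with mean and SD. All members but PCDHA9 show SB points above every control point, and PCDHGA11 and PCDHGC4 stand out by their level.

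These counts carry little weight as a group, because of how genes entered the table. The authors kept a gene when its CPM, the counts set to a common library size, was above 1 in 2 or more samples. For 6 of the 9 clustered members (PCDHB9, PCDHB14, PCDHB15, PCDHGA1, PCDHGB7 and PCDHGC3) fewer than 2 controls were above 1 CPM, while 2 or more SB replicates were. They entered through the SB group, which favours higher values there, so their single fold changes and p-values carry this limit too. In all, 502 genes of the table had fewer than 2 controls above 1 CPM, and 324 of them were called higher and 0 lower. PCDHA9, PCDHGA11 and PCDHGC4 had 4 controls and 4 SB replicates above 1 CPM, and the last 2 of these were called higher. All 9 members were low, with means between 0.139 and 1.18 RPKM, and adding 1 to each RPKM makes their log2 fold changes smaller than the ratios of their means.

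Among the PCDHG family, PCDHGC4 had the largest log2 fold change on the log2(RPKM + 1) scale, while PCDHGA1 had a larger ratio of means. Its RPKM was 0.549, 0.815, 0.869 and 0.872 in control replicates 1 to 4 and 1.38, 1.5, 1.35 and 1.29 in SB replicates 1 to 4. Control replicate 1 was the lowest of the controls, and the groups did not overlap. The mean was 1.78-fold higher after SB, with a log2 fold change of 0.43 (SE 0.063) and an adjusted p of 0.000247 in limma. Without control replicate 1 the log2 fold change was 0.36 and PCDHGC4 was still called higher.

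PCDHGA11, a member of the A subfamily of PCDHG, was the most abundant clustered protocadherin. It was measured at 0.94, 0.973, 0.967 and 0.928 RPKM in the controls and at 1.37, 1.43, 1.37 and 1.47 RPKM in the SB replicates, in order of replicate. Both groups were tight and lay well apart. The rise was 1.48-fold, with a log2 fold change of 0.30 (SE 0.031, limma adjusted p = 2.54e-05), the smallest adjusted p among the members in the limma fit.

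PCDHGA1, the member of the family that lies nearest to the PCDHB genes, had 0.121, 0.136, 0.102 and 0.195 RPKM in the controls and 0.257, 0.384, 0.239 and 0.323 RPKM after SB. Replicate 4 was the highest control and was still below the lowest SB value. The mean rose 2.17-fold (log2 fold change 0.19, SE 0.045, limma adjusted p = 0.00425). PCDHGC3, a C-type gene that is used more widely across cells than the A and B subfamilies, had 0.184, 0.225, 0.158 and 0.177 RPKM in the controls and 0.324, 0.319, 0.29 and 0.307 RPKM after SB. The SB values lay close together and above every control. The ratio of means was 1.67 (log2 fold change 0.14, SE 0.032, limma adjusted p = 0.00324). PCDHGB7 was not called, and its mean RPKM after SB was 1.46 times that of the controls. PCDHGA1, PCDHGC3 and PCDHGB7 entered the table through the SB group, which favours higher SB values and lower p-values for them.

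The PCDHB genes are single-exon genes with no shared constant exon. PCDHB9, PCDHB14 and PCDHB15 entered the table through the SB group, which favours higher SB values and lower p-values for them. PCDHB14 had 0.148, 0.128, 0.184 and 0.105 RPKM in the controls and 0.302, 0.425, 0.423 and 0.391 RPKM after SB. The lowest SB value, in replicate 1, was above the highest control value, in replicate 3. The mean was 2.73-fold higher (log2 fold change 0.28, SE 0.041, limma adjusted p = 0.000242). PCDHB15 varied more, with 0.187, 0.255, 0.165 and 0.102 RPKM in the controls and 0.514, 0.331, 0.557 and 0.35 RPKM after SB. SB replicates 1 and 3 were high and replicates 2 and 4 were nearer to the controls, without overlap. Its mean rose 2.47-fold (log2 fold change 0.29, SE 0.062, limma adjusted p = 0.00251). PCDHB9 was not called, with a ratio of means of 1.38, and the PCDHA family was represented by PCDHA9 alone, which was not called either, with a ratio of 1.16.

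Depth limits these values: PCDHB14 rested on 17 to 72 reads per library, PCDHB15 on 12 to 68, and PCDHGC4 on 112 to 287. Voom in limma, which weights each gene by the precision of its reads and adds no whole RPKM, gave larger log2 fold changes for the same genes, 1.45 for PCDHB14, 1.31 for PCDHB15, 1.11 for PCDHGA1, 0.86 for PCDHGC4, 0.73 for PCDHGC3 and 0.57 for PCDHGA11. With voom PCDHB9 and PCDHGB7 were also called higher, which made 8 of the 9, and over all genes voom called 4864 higher and 4758 lower. Both added members entered the table through the SB group, so their calls add no weight to the count. A 4 against 4 exact permutation test, two-sided, cannot give a p below 0.0286, and each member whose groups did not overlap reached that value.

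Summed over the members of a family, reads in CPM of the scaled library gave 1 value per sample that does not depend on the pseudocount. The 9 clustered members together had 12.8, 14.8, 14.2 and 14.1 CPM in control replicates 1 to 4 and 22.5, 24.1, 23.0 and 22.9 CPM in SB replicates 1 to 4. The control sums lay between 12.8 and 14.8 CPM and the SB sums between 22.5 and 24.1 CPM, so the groups were apart, and the ratio of the mean sums was 1.66. The 5 PCDHG members together had 9.87 to 11.6 CPM in the controls and 17.2 to 19.1 CPM after SB, a ratio of means of 1.64, and the 3 PCDHB members 1.76 ± 0.272 and 3.74 ± 0.459 CPM (mean ± SD, n = 4). No test was made of these sums, and they carry the same limit, since all 3 PCDHB members and 3 of the 5 PCDHG members entered the table through the SB group. Reads counted in bulk cannot tell more RNA per cell from more cells that carry the RNA.

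PCDHG transcripts share their 3′ constant exons. In the GENCODE annotation, 43.9% of exon bases of PCDHGB7, 43.8% of PCDHGC4 and 40.1% of PCDHGC3 also belong to another gene. For PCDHGA11 the share is 37.5%, for PCDHA9 35.4% and for PCDHGA1 34.5%. How the authors' counting treated reads in shared exons was not given in the sources used here, so values of single PCDHG genes are uncertain. A read counted for all 5 members would be part of the count of each, and the member with fewest reads had 15 to 30 reads in the controls and 37 to 48 after SB. At that upper limit such reads would make up 19.1% to 31.6% of the summed PCDHG reads. Reads shared by fewer members are not limited in this way.

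Promoter sequences from RefSeq (GRCh38.p14, 250 bases before to 50 bases after each gene's start) were found for 22 of the 28 members, all 9 clustered members among them. They are shown because promoters of the clustered genes are alike within a family, and no link between these sequences and the RNA levels was tested. Clustered protocadherin promoters are known for a conserved sequence element with the core CGCT, and the motifs TGGCGCT and GCCGCTG, which share these letters, were chosen after the sequences were seen and searched on both strands. The stretches below run from 110 to 31 bases before the gene's start on the strand of the gene, with the matches in capitals. No match in them overlapped another.
PCDHB9: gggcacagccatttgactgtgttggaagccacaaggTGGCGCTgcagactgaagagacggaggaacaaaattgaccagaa
PCDHB14: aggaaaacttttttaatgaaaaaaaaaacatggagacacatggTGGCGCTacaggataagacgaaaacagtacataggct
PCDHB15: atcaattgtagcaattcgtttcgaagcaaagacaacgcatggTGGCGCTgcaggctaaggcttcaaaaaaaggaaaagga
PCDHGA1: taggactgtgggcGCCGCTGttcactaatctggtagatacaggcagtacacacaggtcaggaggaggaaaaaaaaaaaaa
PCDHGA11: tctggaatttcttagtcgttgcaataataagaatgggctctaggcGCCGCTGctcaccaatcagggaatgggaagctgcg
PCDHGC3: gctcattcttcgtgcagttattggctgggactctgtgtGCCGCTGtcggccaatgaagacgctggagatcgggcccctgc
PCDHGC4: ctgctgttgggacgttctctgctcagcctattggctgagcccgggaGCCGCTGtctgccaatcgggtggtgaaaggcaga
These stretches lie on the plus strand of chromosome 5, at chr5:141187051-141187130 for PCDHB9, chr5:141223233-141223312 for PCDHB14, chr5:141245285-141245364 for PCDHB15, chr5:141330404-141330483 for PCDHGA1, chr5:141420941-141421020 for PCDHGA11, chr5:141475856-141475935 for PCDHGC3 and chr5:141484920-141484999 for PCDHGC4. Each ends before the gene's annotated first base, and those of PCDHGA11, PCDHGC3 and PCDHGC4 lie within the annotated span of PCDHGA1.

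TGGCGCT started 74 bases before the start of PCDHB9, 67 before PCDHB14 and 68 before PCDHB15, and also 149 before PCDHGC3, outside its printed stretch. GCCGCTG started 97 bases before PCDHGA1, 65 before PCDHGA11, 72 before PCDHGC3 and 64 before PCDHGC4. PCDHGB7 and PCDHA9 held neither motif in this window. Of the 35116 RefSeq promoters of the same length, 4.08% held TGGCGCT and 11.1% held GCCGCTG. Among the 47 clustered genes with an entry, TGGCGCT was in 13 of 14 PCDHB promoters, 3 of 20 PCDHG promoters and 0 of 13 PCDHA promoters, and GCCGCTG was in 12 of 20 PCDHG promoters and in 0 of the PCDHA and PCDHB promoters. Of the 13 other members with an entry, 0 held TGGCGCT, and CDH2, CDH12 and PCDH12 held GCCGCTG. The motif of the PCDHB promoters was in called and uncalled genes, since PCDHB9 held the same letters as PCDHB14 and PCDHB15. Among the members with an entry, the other motif was held only by called genes, of which CDH2 was lower and the rest higher. Over all genes 65.6% were called in either direction, and PCDHGA1, PCDHGC3 and PCDH12 entered the table only through the SB group. The matches in CDH2 started 13 and 28 bases after the gene's start, and that of PCDH12 was on the other strand. Whether either motif goes with the calls was not tested.

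The genes around the clusters did not share their direction. In GRCh38 the clusters span chr5:140786140-141512975, and within 500 kb of either end the table had 23 genes that are not members. Of these 7 were called higher, 10 lower and 6 not called by limma, with a median log2 fold change of -0.12, against 33.0% higher and 32.6% lower over all genes. Without the TMM factors (the scaling factors of the authors) 9 were called higher and 10 lower, and the median was -0.017. The only such gene inside the clusters, TAF7, which encodes a subunit of the general transcription factor TFIID, was not called and had a ratio of means of 0.988. Higher calls went to APBB3, DND1, HARS, DIAPH1, FCHSD1, ARAP3 and KIAA0141, and lower calls to PFDN1, ANKHD1, SRA1, TMCO6, HARS2, ZMAT2, HDAC3, RELL2, RNF14 and GNPDA1. HBEGF, SLC35A4, NDUFA2, IK and WDR55 were not called. HARS was not called without SB replicate 4 (limma adjusted p = 0.0568), while NDUFA2 was called lower without control replicate 1 (limma adjusted p = 0.000177) and IK without control replicate 2 (limma adjusted p = 0.0257) and with a replicate block, without and with voom (limma adjusted p = 0.0408 and 0.0282). HBEGF and SLC35A4 were called higher without the TMM factors (limma adjusted p = 0.0453 and 0.025), and SLC35A4 also with voom and a replicate block (limma adjusted p = 0.0478).

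ARAP3 rose most, 1.73-fold (log2 fold change 0.60), and TMCO6 fell most on the log2(RPKM + 1) scale, with a log2 fold change of -0.55, while with voom RELL2 fell slightly more. HDAC3, a histone deacetylase gene beyond the PCDHG end, went from 65.7 ± 0.993 to 50.9 ± 0.755 RPKM (log2 fold change -0.36, limma adjusted p = 8.04e-06). The 11 members in the same window are the 9 clustered genes with PCDH1 and PCDH12. Their median log2 fold change was 0.21, and limma called 8 higher and 0 lower, against 33.0% and 32.6% over all genes. Of the 8, PCDHB14, PCDHB15, PCDHGA1, PCDHGC3 and PCDH12 had entered the table only through the SB group.

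**Figure D2:**
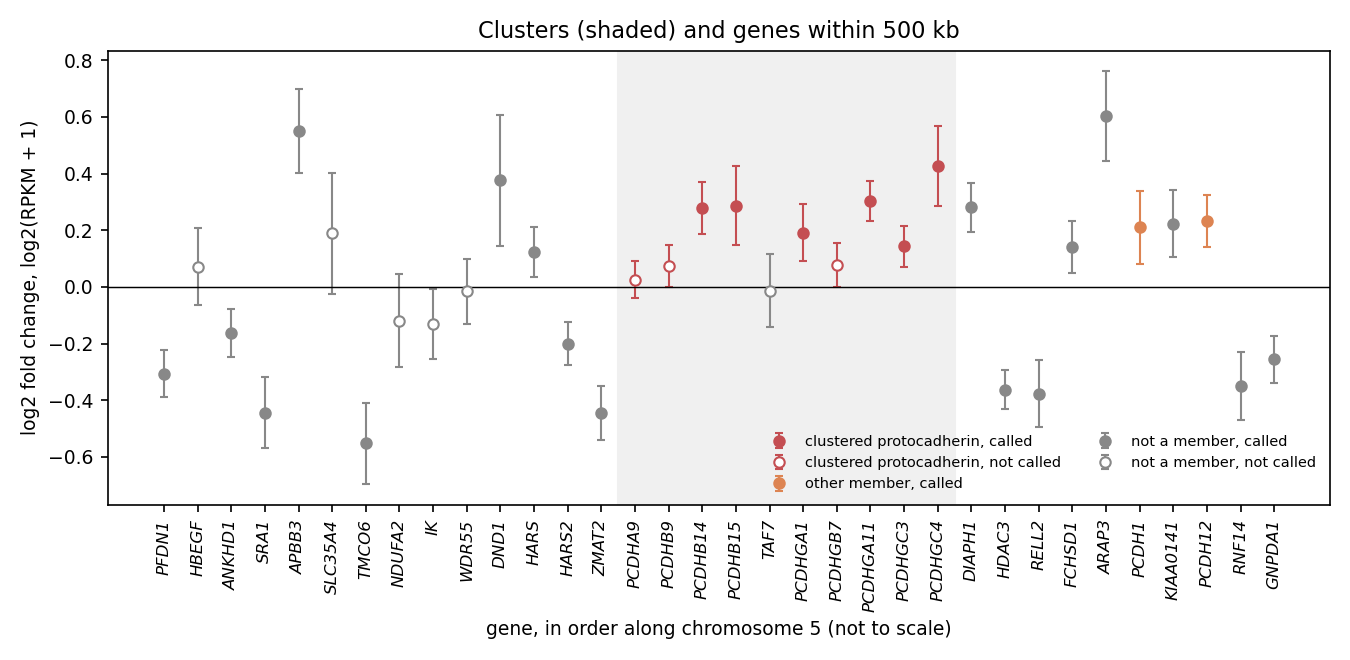
Log2 fold change (SB-treated against control, log2(RPKM + 1), vertical axis, bars 95% intervals from limma) of the genes of the table in and within 500 kb of the protocadherin clusters, in order along chromosome 5 (horizontal axis, not to scale). The 9 clustered members in the shaded part lie above 0, while the 23 genes that are not members lie on both sides, with 7 called higher and 10 lower.

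The 19 other cadherins and protocadherins moved in both directions. Limma called 7 higher and 6 lower and left 6 uncalled, shares near the 33.0% and 32.6% over all genes. The groups did not overlap for 13 members, 7 with the SB replicates higher and 6 with them lower. Over all genes 31.0% and 30.5% separated in these directions, and the median log2 fold change of the 19 was 0.048. Without the TMM factors the split became 9 higher and 4 lower, and over all genes it became 6253 higher and 3357 lower, in place of 4787 and 4740. PCDH12 entered the table only through the SB group, with 1 control above 1 CPM, and CDH10 only through the controls, with 0 SB replicates above 1 CPM. That filter favours the directions they had. Without control replicate 1 the calls were 7 higher and 0 lower of the clustered members, with PCDHGB7, which entered through the SB group, added. Those of the others were 7 higher and 6 lower, and those over all genes were 5459 higher and 5511 lower.

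**Figure D3:**
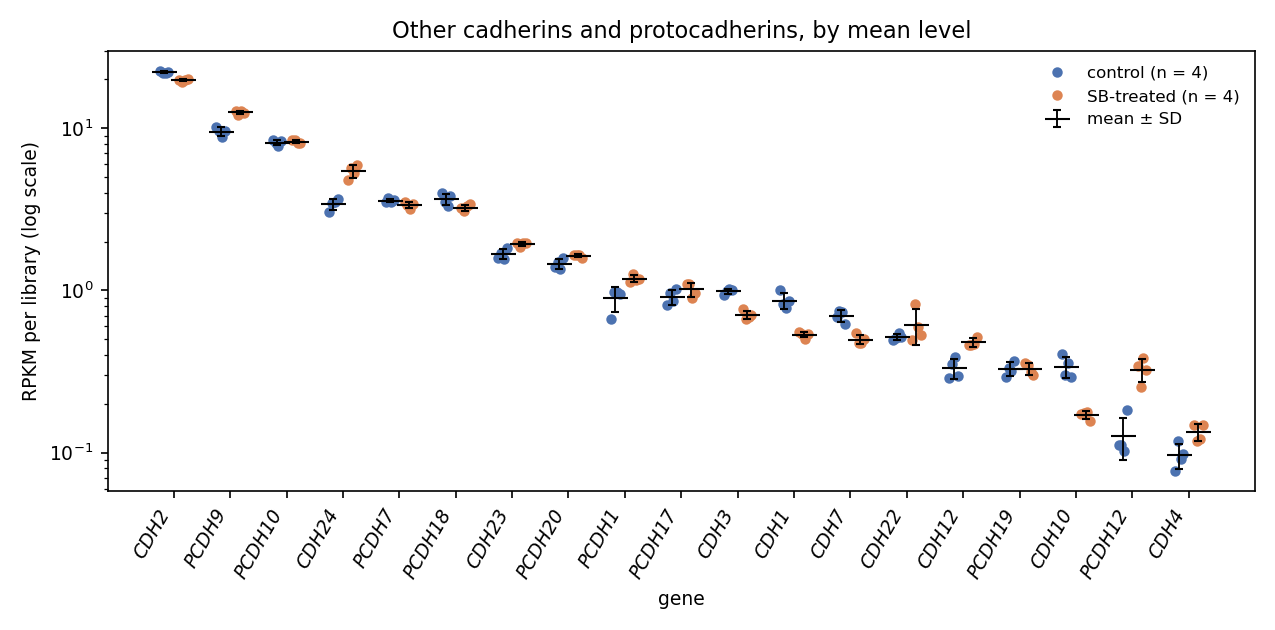
RPKM (vertical axis, log scale) of the 19 other cadherins and protocadherins in each of 4 control and 4 SB-treated libraries, by mean level (horizontal axis), with mean and SD. CDH2 is the most abundant in every library, and CDH24, CDH10 and PCDH12 are among the members whose groups are apart.

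By mean RPKM over all 8 libraries, CDH2, PCDH9, PCDH10, CDH24 and PCDH7 led the members, while in the controls alone PCDH18 (3.65 RPKM) was above PCDH7 (3.58 RPKM) and CDH24 (3.42 RPKM). CDH2, the neural cadherin of nerve, muscle and mesenchymal cells, held 32.4% of the RPKM summed over the 28 members. It had 22.6, 22.0, 21.9 and 22.1 RPKM in control replicates 1 to 4 and 19.9, 19.4, 19.9 and 20.2 RPKM in SB replicates 1 to 4. The groups were apart, and the SB mean was 10.4% lower (log2 fold change -0.15, SE 0.031, limma adjusted p = 0.00205). CDH2 was not called without the TMM factors, where its log2 fold change was -0.051 (limma adjusted p = 0.167, against 0.00205 with them).

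The epithelial cadherin CDH1 was far below CDH2. Its RPKM was 1.0, 0.823, 0.779 and 0.864 in the controls and 0.557, 0.538, 0.506 and 0.54 after SB. Control replicate 1 was the highest library, and all SB values were below all controls. The mean fell to 0.617 of the control mean (log2 fold change -0.28, SE 0.041, limma adjusted p = 0.000248), and CDH1 was called lower without control replicate 1 as well, with a log2 fold change of -0.25.

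CDH3, the placental cadherin, lies 3.52 kb before CDH1 on chromosome 16. It had 0.94, 0.986, 1.02 and 1.01 RPKM in the controls and 0.767, 0.664, 0.691 and 0.704 RPKM after SB. These groups did not overlap, and the mean fell to 0.715 of the control mean (log2 fold change -0.22, SE 0.034, limma adjusted p = 0.000306). CDH3 and CDH1 were the only members outside the clusters with a member as the next protein-coding gene in RefSeq. CDH4, the retinal cadherin, was not called, with a ratio of means of 1.39.

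Type II cadherins, relatives of the classical cadherins that sort nerve cells and other cells into groups, moved in both directions. CDH24 had the largest log2 fold change of all 28 members on the log2(RPKM + 1) scale. It had 3.05, 3.47, 3.49 and 3.67 RPKM in the controls and 4.77, 5.73, 5.27 and 5.92 RPKM after SB. The highest control, replicate 4, was below the lowest SB value, replicate 1. Its mean rose 1.59-fold (log2 fold change 0.54, SE 0.065, limma adjusted p = 6.56e-05).

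CDH10 and CDH7 fell. CDH10 had 0.403, 0.303, 0.358 and 0.292 RPKM in the controls and 0.174, 0.176, 0.179 and 0.156 RPKM after SB, from 23 to 59 reads per library. The SB values were tight and below every control, and the control mean was 1.98 times the SB mean (log2 fold change -0.19, SE 0.036, limma adjusted p = 0.00116). CDH10 entered the table through the controls, which favours this fall and a low p-value. CDH7 had 0.691, 0.747, 0.738 and 0.62 RPKM in the controls and 0.545, 0.476, 0.471 and 0.501 RPKM after SB. Its groups did not overlap, and the mean fell to 0.713 of the control mean (log2 fold change -0.18, SE 0.037, limma adjusted p = 0.00187). CDH12 was called higher with a ratio of means of 1.45 (limma adjusted p = 0.00465), and CDH22 was not called, with a ratio of 1.19. CDH23, which forms tip links between the stereocilia of hair cells, was called higher with a ratio of 1.16 (limma adjusted p = 0.0115). In the GENCODE annotation 18.9% of its exon bases overlap C10orf105 on the opposite strand.

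Of the non-clustered protocadherins, PCDH9 was the most abundant. It had 10.2, 9.58, 8.8 and 9.57 RPKM in the controls and 12.7, 12.1, 12.7 and 12.5 RPKM after SB. All SB libraries were above all controls, and the mean rose 1.31-fold (log2 fold change 0.36, SE 0.044, limma adjusted p = 7.61e-05). PCDH12, known from endothelial cells and placenta, had 0.111, 0.112, 0.102 and 0.183 RPKM in the controls and 0.341, 0.253, 0.382 and 0.324 RPKM after SB. Control replicate 4 was the highest control and still below the SB group. Its mean rose 2.56-fold (log2 fold change 0.23, SE 0.041, limma adjusted p = 0.00079), from 24 to 106 reads per library. PCDH12 entered the table through the SB group, which favours this rise and a low p-value.

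PCDH1, an adhesion protein of airway epithelium, had 0.665, 0.982, 0.977 and 0.946 RPKM in the controls and 1.13, 1.26, 1.17 and 1.18 RPKM after SB. Control replicate 1 was far below the other controls, and the groups were apart. The mean rose 1.33-fold (log2 fold change 0.21, SE 0.058, limma adjusted p = 0.00968). Without control replicate 1 the log2 fold change of PCDH1 was 0.15, and it was still called higher.

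PCDH10 and PCDH7, among the members with the highest mean RPKM, hardly differed. Over all genes of the table their mean RPKM stood at percentiles 49.0 and 30.7. PCDH10, which recruits the WAVE complex to the membrane of axons, had 8.49, 8.09, 7.76 and 8.34 RPKM in the controls and 8.53, 8.42, 8.13 and 8.06 RPKM after SB, and the groups overlapped. Its ratio of means was 1.01, and the 95% interval of its log2 fold change ran from -0.066 to 0.10. PCDH7 had 3.51, 3.7, 3.51 and 3.62 RPKM in the controls and 3.49, 3.35, 3.18 and 3.43 RPKM after SB. Its SB values all lay below the controls by a small margin, with a ratio of 0.939, and it was not called (limma adjusted p = 0.106) except without control replicate 1 (adjusted p = 0.0468 in limma). Without the TMM factors PCDH10 was called higher, with a log2 fold change of 0.11, and PCDH7 changed sign, from -0.071 to 0.011, and was not called.

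PCDH19, an epilepsy gene on chromosome X, had a ratio of means of 1.0, and PCDH17 of 1.11. Neither was called, but PCDH17 was called higher without the TMM factors. PCDH18 was called lower with a ratio of 0.89 although its groups overlapped (limma adjusted p = 0.0456). PCDH20 was called higher with a ratio of 1.12 (limma adjusted p = 0.0401). In the GENCODE annotation 91.3% of its exon bases also belong to another gene model on the same strand. Whether the authors counted with that model was not given, so how far its reads are affected is not known. The call of PCDH18 was lost without control replicate 1, 2 or 4 or any 1 of the SB replicates, with a limma adjusted p of up to 0.121. That of PCDH20 was lost without control replicate 2 or 3 or any 1 of the SB replicates, with a limma adjusted p of up to 0.102. PCDH20 was also not called with a replicate block, without and with voom (limma adjusted p = 0.0638 and 0.0735).

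**Figure D4:**
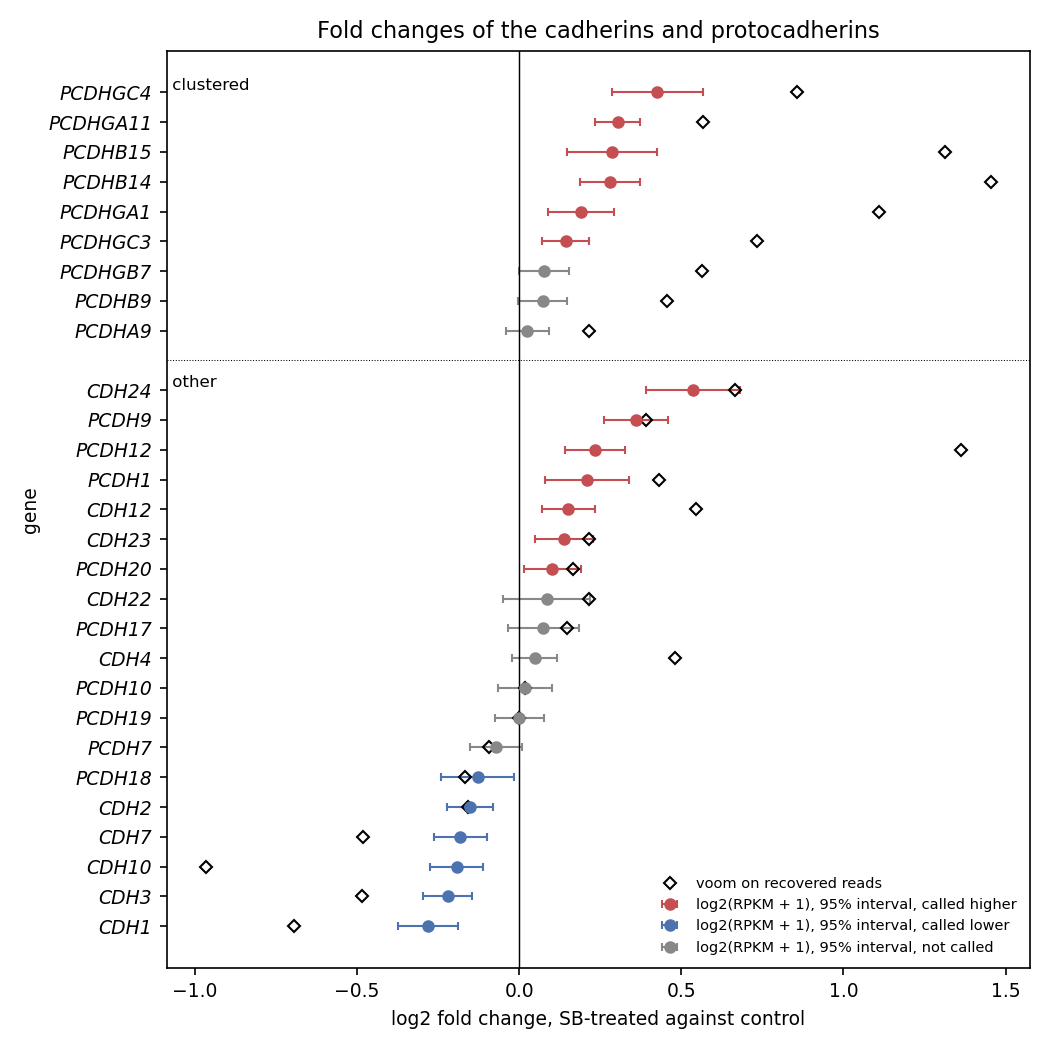
Log2 fold change (horizontal axis, SB-treated against control, n = 4 each) of the 28 members (vertical axis), with circles and bars for limma on log2(RPKM + 1) and its 95% interval, and diamonds for voom in limma on the recovered reads. All 9 clustered members lie above 0 with both, the other 19 lie on both sides, and low genes such as PCDHB14 differ most between the methods (0.28 and 1.45).

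Genes that work with the members were counted in 6 lists. Of 15 measured junction partners, which bind cadherin tails or sit at the same junctions, limma called 6 higher and 2 lower, against 33.0% and 32.6% over all genes, with a median log2 fold change of 0.078. ARVCF, a catenin related to CTNND1, rose 3.02-fold (2.15 ± 0.269 to 6.49 ± 0.422 RPKM, limma adjusted p = 6.65e-07), and the receptor phosphatase PTPRM rose 1.43-fold (2.82 ± 0.219 to 4.04 ± 0.126 RPKM, limma adjusted p = 4.56e-05). Beta-catenin (CTNNB1) went from 111 ± 2.59 to 96.1 ± 0.65 RPKM (log2 fold change -0.21) and plakoglobin (JUP) from 15.4 ± 1.96 to 12.7 ± 0.365 RPKM (log2 fold change -0.25), both called lower. The call of JUP was lost without the TMM factors and without control replicate 2, 3 or 4, with limma adjusted p of 0.122, 0.0504, 0.0534 and 0.0518.

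Of 21 measured genes that carry cadherin repeats but are not members, limma called 11 higher and 0 lower, against 33.0% and 32.6% over all genes, and the counts were the same at an unadjusted p below 0.05 and with voom. Higher calls numbered 10 with the replicate block and 9 to 11 without 1 library, with 0 lower. FAT2, CDHR2 and CLSTN2, which are among the 11, entered the table through the SB group, and of the other 18 genes 8 were called higher and 0 lower. The median log2 fold change was 0.082. On the log2(RPKM + 1) scale the largest rises were those of the planar polarity cadherins CELSR2 (3.15 ± 0.406 to 6.16 ± 0.101 RPKM, 1.95-fold, limma adjusted p = 6.88e-06) and CELSR3 (3.6 ± 0.452 to 6.31 ± 0.19 RPKM, 1.75-fold, limma adjusted p = 1.96e-05). Summed over the 21 genes, RPKM was 190, 192, 184 and 196 in control replicates 1 to 4 and 211, 210, 209 and 206 in SB replicates 1 to 4, without overlap.

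Of 10 measured repressors of cadherin genes and epithelial factors, limma called 3 higher, among them ESRP1, which entered the table through the SB group, and 4 lower, beside 33.0% and 32.6% over all genes. SNAI2, a repressor of CDH1 in mesenchymal cells, went from 83.9 ± 11.6 to 38.0 ± 0.992 RPKM (log2 fold change -1.11, limma adjusted p = 3.16e-06), and ZEB1 from 14.4 ± 1.69 to 10.9 ± 0.133 RPKM (log2 fold change -0.36, limma adjusted p = 0.000986). SNAI3 rose 2.1-fold to 1.07 RPKM and ZEB2 rose 1.44-fold to 6.34 RPKM. CDH1 itself was lower after SB, as given above, and the part of these repressors in it was not tested.

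Of 18 measured regulators of the protocadherin clusters, limma called 6 higher and 5 lower, shares near the 33.0% and 32.6% over all genes, and CTCF was not called (30.5 ± 0.84 to 29.9 ± 0.218 RPKM). The repressor REST rose 1.33-fold. The cohesin subunits SMC3 and RAD21 were called lower, with log2 fold changes of -0.44 and -0.19. Without the TMM factors this list had 10 higher calls and 1 lower call, and RAD21 was not called (limma adjusted p = 0.12). Without control replicate 1 it had 10 higher and 7 lower, and over all genes the calls went from 4787 to 5459 higher and from 4740 to 5511 lower. The part of these genes in the rise of the clustered members was not tested.

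Of 9 measured proteases and gamma-secretase subunits that cleave cadherins, limma called 4 higher and 2 lower, where 33.0% of all genes were called higher, 32.6% lower and 65.6% in either direction. FURIN rose 1.57-fold and APH1B 1.3-fold, while ADAM17 and PSEN2 were called lower with log2 fold changes of -0.17 and -0.14. Of 12 measured WAVE complex subunits and kinases that bind protocadherin tails, 3 were called higher and 5 lower, a share called near that over all genes. CYFIP2 rose 1.44-fold and WASF3 1.29-fold, and BRK1 and WASF1 were called lower with log2 fold changes of -0.26 and -0.16. Without the TMM factors ADAM17, PSEN2 and WASF1 were not called.

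**Figure D5:**
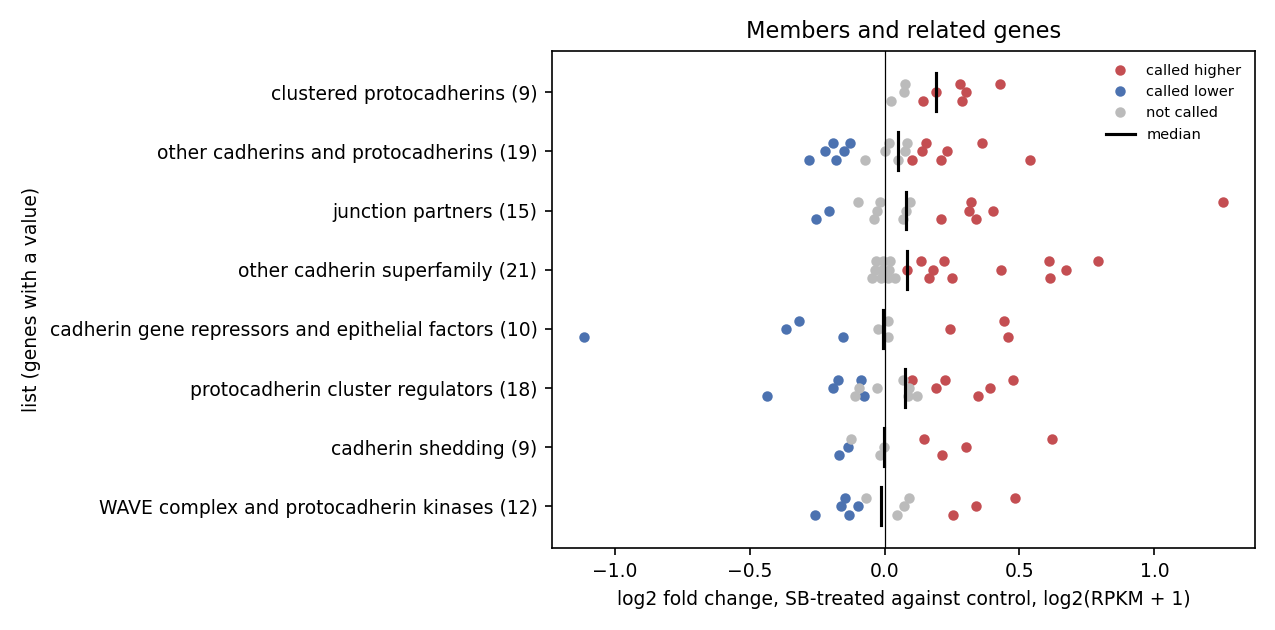
Log2 fold change (horizontal axis, SB-treated against control, limma on log2(RPKM + 1)) of each measured gene of the members and of 6 related lists (vertical axis, number of genes in brackets), coloured by call, with the median as a bar. The 9 clustered protocadherins and the 21 other genes with cadherin repeats have no lower call, and the other lists have calls on both sides.

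Markers of other cell types were counted beside the members. Of 8 neuronal markers 7 had a row, SNAP25 being the one without, and limma called MAP2, TUBB3, SYP and INA higher and NEFL and NEFM lower. Their summed RPKM was 103, 95.2, 100 and 93.6 in control replicates 1 to 4 and 68.9, 67.6, 68.3 and 69.8 in SB replicates 1 to 4, with NEFL the most abundant at a mean of 34.7 RPKM. Of 7 epithelial markers 5 had a row, without EPCAM and KRT19, and 3 were called higher and 1 lower. CLDN4 and ESRP1, which are among the 3, entered the table through the SB group. Without control replicate 1 KRT18 was also called lower (limma adjusted p = 0.00405). The summed RPKM of the 5 was 56.8, 66.5, 66.7 and 67.3 in the controls and 71.0, 72.5, 71.7 and 71.8 after SB, mostly from KRT8 and KRT18, which liver cells also make. ESRP1 was in this list and in that of the epithelial factors.

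Of 6 fibroblast markers COL1A1 and LUM had a row, with a summed RPKM of 3.97, 5.71, 5.53 and 5.63 in the controls and 4.69, 4.75, 4.66 and 4.73 after SB, and LUM, which entered the table through the SB group, was called higher. COL1A1 was the more abundant at a mean of 4.48 RPKM, and it was not called with all libraries but called lower without control replicate 1 (limma adjusted p = 2.38e-06). Of 5 endothelial markers KDR alone had a row, at 0.268, 0.348, 0.305 and 0.335 RPKM in the controls and 0.185, 0.12, 0.113 and 0.163 RPKM after SB, and was called lower, while PECAM1, VWF, TEK and CLDN5 had no row. The part of such markers in the differences of the members was not tested.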

How the data were processed

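RNA of 4 control and 4 SB-treated samples, grouped by the sample labels, was compared. The authors mapped reads to hg38 with TopHat2 2.1.0, counted them per gene with featureCounts 1.5.0, left out genes unless 2 or more samples had a CPM over 1, and scaled libraries with TMM in edgeR 3.16.5. The deposited values are RPKM, 1 for each gene in each sample. The authors' own fold changes and p-values in the table were not used. The settings for strand and shared exons in the counting were not given in the sources used here.

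The reads behind the RPKM values came out whole, within 0.02 of a read, for 100% of the 14526 genes, using the steps that 1 read makes in low genes. The recovery returns the smallest reads that fit, so a gene whose true reads share a divisor in all 8 libraries would be given too few, with its ratios unchanged. RPKM values were tested on log2(RPKM + 1) with lmFit and eBayes in limma 3.58.1 (R 4.3.3), two-sided, p-values being adjusted over the whole table by the Benjamini-Hochberg method, with a call at an adjusted p below 0.05 and no further filter. Adding 1 shrinks the fold changes of low genes. Exact permutation tests used scipy 1.17.1. Both the recovery and the limma fit were tested on simulated data. Alternatives were a pseudocount of 0.1, sizes without the TMM factors, a floor of 10 reads in all samples, voom with and without a replicate block, the block in the main test, an intensity trend and leaving out each sample.

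The members and lists were chosen with earlier results of these data known. Values of every sample were given for the 6 clustered and the 8 other called members with the largest log2 fold change, the 5 members with the highest mean RPKM, CDH1 and CDH2. Members not called were named with their fold change. From each list up to 2 called genes per direction were named, with all table genes within 500 kb of the clusters. Other called members, CTCF and the markers were named after their values were seen. The lists were junction partners, other genes with cadherin repeats, cadherin gene repressors and epithelial factors, regulators of the protocadherin clusters, cadherin shedding, and WAVE complex and protocadherin kinases, with markers of hepatocyte, epithelial, fibroblast, endothelial and neuronal cells.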

Additional observations from a re-analysis of the deposited data

Results flagged for a closer look

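In 6 of 56 sets of 4 replicates (28 members in 2 groups) 1 library lay far from the other 3, by the gap to its nearest neighbour divided by the range of log2(RPKM + 1) (Dixon's ratio, given in brackets) above its 95% critical value. Chance would give about 2.8 of 56. Control replicate 1 was the low library for PCDHGC4 (0.838) and PCDH1 (0.895). Control replicate 3 was low for PCDHGB7 (0.887), and control replicate 4 was high for PCDH12 (0.873). Among the SB replicates, replicate 2 was low for CDH23 (0.891) and replicate 4 was high for CDH12 (0.884). PCDHGC4, PCDH1, PCDH12, CDH23 and CDH12 kept their calls in limma when any 1 library was left out. PCDHGB7 was not called in limma with all libraries (adjusted p = 0.0696) and was called higher without control replicate 1 (adjusted p = 0.0216 in limma).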

How the results depend on the processing

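Of 420 comparisons of a member's log2 fold change between the main test and 15 other settings, 385 stayed on the same side of the threshold, 17 passed it only in the other setting and 18 no longer passed it; no called member changed sign. Clustered members called higher numbered 8 with the pseudocount of 0.1, voom, the intensity trend or no TMM factors, 6 with the read filter, and 6 to 7 without 1 library, with 0 lower throughout. PCDHB9 and PCDHGB7, called in the settings with 8 but not in the main test, entered the table through the SB group. PCDH18 lost its call with the intensity trend and without the TMM factors. CDH4 was called higher with the pseudocount of 0.1 and with voom (limma adjusted p = 0.0145 and 0.0152). Without the TMM factors the median log2 fold change of all genes was 0.079, and lower calls fell to 1 of the junction partners, 1 of the cluster regulators, 0 of the shedding genes and 1 of the WAVE list, while higher calls reached 10 of the cluster regulators and 6 of the WAVE list; the factors are the only change in that setting. With the pseudocount of 0.1 the cluster regulators had 3 lower calls, and the cause was not tested. Leaving out 1 library gave 1 to 2 lower calls of the junction partners, 5 to 10 higher and 2 to 7 lower of the cluster regulators, 2 to 4 lower of the shedding genes and 2 to 5 lower of the WAVE list.

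Deviations from the group means correlated at 0.38, 0.327, 0.173 and -0.16 between samples with the same replicate number (1 to 4), a mean of 0.18 against -0.054 for other pairs, and whether such samples were handled together is not stated. With the replicate block 4885 genes were higher and 4894 lower, clustered members had 6 higher calls and the others 6 higher and 6 lower, PCDH20 being lost (limma adjusted p = 0.0638). Depth limits the clustered members, and 6 of the 9 had fewer than 2 controls above 1 CPM.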
